A study of Mus musculus with 2 samples.

Results

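In mouse neural stem cells (NSCs), 8 long non-coding RNAs (lncRNAs) were examined that are linked to neurodevelopmental transcription factors by their position or by what is known of them: Pou3f3os, Six3os1, Sox2ot, Emx2os, Dlx1as, Dlx6os1, Lhx1os and Rmst. They were taken by name from the lncRNA table of the study and are 8 of its 8714 lncRNAs. Of them 7 lie beside the transcription factor gene whose name they carry, and Rmst carries no such name and has no coding gene of the tables within 100 kb. The rule that picked them used names only, but it was set with earlier results of these data known. The data were 2 RNA-Seq libraries of 1 group, NSC replicates 1 and 2, made from poly(A)+ RNA of NSCs of the cortex of E14.5 CD-1 mice. The cells were bought from a supplier and passaged as monolayers in medium that held the growth factors EGF and FGF (20 ng/ml of either), so every value here is of cells selected for growth in these factors. Values are FPKM, counts of fragments corrected for transcript length and for library size, so levels of different genes can be set side by side. The study calls its NSC replicates biological, without saying what was separate between them for these bought cells, so an SD measures the spread between these libraries, and with 1 group no comparison between conditions could be tested.

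Many genes of developmental transcription factors have a lncRNA next to them, transcribed from the opposite strand (names ending in os or as) or across the gene (ot). Such RNAs often appear in the same region of the embryo as the factor. Some act on the neighbouring gene in cis or bind the factors themselves. Sox2ot contains Sox2, the factor that keeps neural progenitors undifferentiated, within one of its introns. Six3os1 lies at Six3, a homeobox gene of the anterior forebrain and eye, and in mouse retina its RNA was described to act together with the SIX3 protein. Dlx6os1, also called Evf2, is made in the ventral forebrain from the enhancers between Dlx5 and Dlx6 and binds DLX proteins. Rmst is known in human neural cells as a partner of SOX2.

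The 8 lncRNAs fell into those that NSCs expressed well, 1 at a low level and those at the lowest value of the tables. Pou3f3os had an FPKM of 25.5 in replicate 1 and 32.1 in replicate 2, Six3os1 13.5 and 13.3, and Sox2ot 4.08 and 4.54. Emx2os had 0.429 and 0.527. Dlx1as, Dlx6os1, Lhx1os and Rmst were at 0.1, the lowest value that occurs in the files, in both libraries. The order Pou3f3os, Six3os1, Sox2ot, Emx2os was the same in each library, and no neighbours in this order overlapped. The remaining 4 shared their value with each other and cannot be ordered. Above FPKM 1 in both libraries were 3 of the 8, set against 3.28% of all 8714 lncRNAs (286). A closer background is given by the lncRNAs that, like all 8, also have a row among the known genes, of which 15.4% (152 of 986) passed FPKM 1, whereas 1.73% of those without such a row did. These are shares of lists, and no test was made of 8 genes chosen by name.

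**Figure D1:**
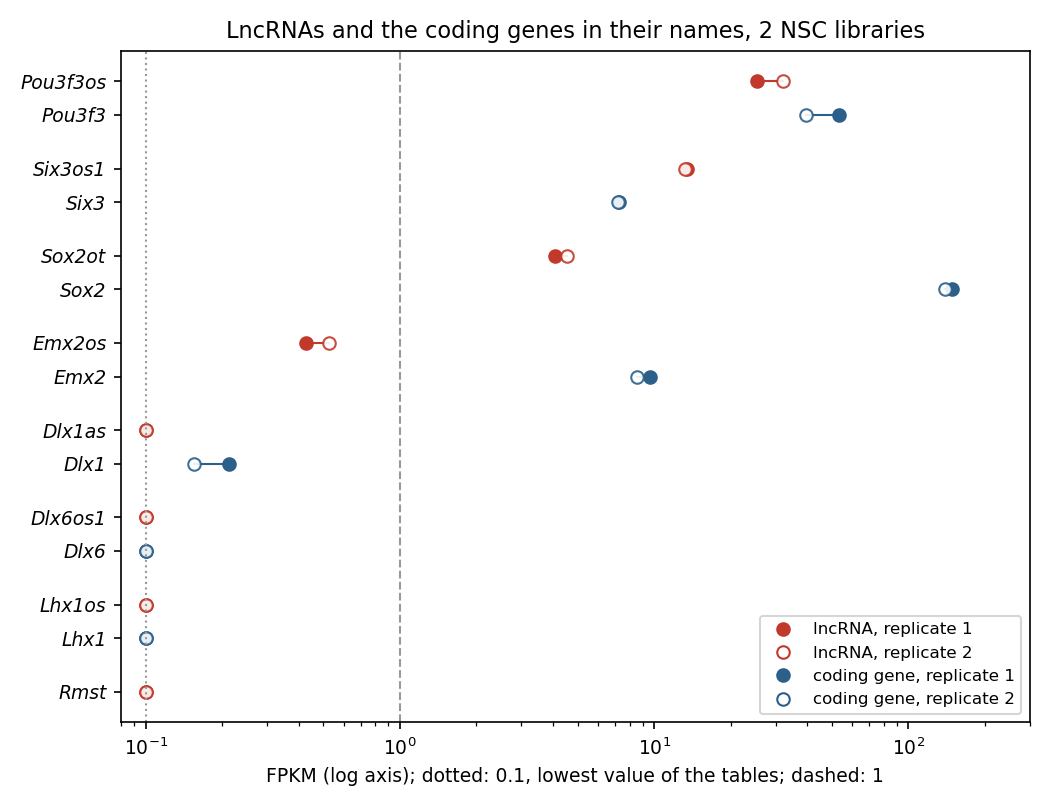
FPKM (log axis) of the 8 lncRNAs (red) and, below each, of the coding gene in its name (blue) in NSC replicate 1 (filled) and replicate 2 (open), with a line joining the libraries. Pou3f3os, Six3os1 and Sox2ot lie right of the dashed line at FPKM 1, Emx2os lies between 0.1 and 1, and the other 4 lie on the dotted line at 0.1.

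The genes that give the lncRNAs their names are transcription factor genes of the forebrain. Of these 7 coding genes 4 were above FPKM 1 in both libraries (47.7% of all known genes were) and 5 were above 0.1 (57.8% of all known genes). The 4 were the partners of the 4 lncRNAs above 0.1. Sox2 had an FPKM of 143 ± 6.46 (SD, n = 2 libraries), Pou3f3, a POU factor of upper-layer cortical neurons and their progenitors, 46.4 ± 9.66, Emx2, which patterns the dorsal telencephalon, 9.10 ± 0.80, and Six3 7.23 ± 0.0337. Dlx1, a homeobox gene of ventral progenitors and interneurons, was at 0.184 ± 0.0405. Dlx6, of the same family, and Lhx1, a LIM homeobox gene of Cajal-Retzius cells and other early neurons, were at 0.1 in both libraries. Thus no lncRNA among the 7 with a partner was above 0.1 where its coding gene was below FPKM 1. The order of levels was not shared: Sox2 was the highest of the coding genes and Sox2ot the third of the lncRNAs, and Emx2 was above Six3 whereas Emx2os was below Six3os1. The libraries did not overlap in any of these comparisons.

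Where the start sites lie is shown with 4 sequences upstream of starts, the first and second from pairs with both genes above FPKM 1 and the others from pairs with both at 0.1. Coordinates are those of GRCm38, the assembly of mm10, and the sequences are those of RefSeq for GRCm38.p6, read 5′ to 3′ along the strand given, with each CpG dinucleotide in capitals.
Upstream of Pou3f3, between its start and that of Pou3f3os, chr1:42695518-42695767, plus strand: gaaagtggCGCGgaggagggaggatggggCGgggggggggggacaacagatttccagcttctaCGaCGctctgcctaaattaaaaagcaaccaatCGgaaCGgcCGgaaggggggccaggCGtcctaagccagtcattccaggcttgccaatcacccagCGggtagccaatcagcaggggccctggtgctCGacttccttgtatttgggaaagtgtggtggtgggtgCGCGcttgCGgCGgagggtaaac
Upstream of Six3os1, chr17:85618399-85618646, minus strand: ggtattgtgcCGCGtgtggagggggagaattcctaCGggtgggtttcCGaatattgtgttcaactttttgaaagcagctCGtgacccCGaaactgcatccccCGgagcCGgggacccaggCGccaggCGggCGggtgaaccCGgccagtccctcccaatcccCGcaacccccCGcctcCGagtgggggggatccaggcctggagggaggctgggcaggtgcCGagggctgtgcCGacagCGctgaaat
Between Lhx1 and Lhx1os, whole, chr11:84525536-84525659, plus strand: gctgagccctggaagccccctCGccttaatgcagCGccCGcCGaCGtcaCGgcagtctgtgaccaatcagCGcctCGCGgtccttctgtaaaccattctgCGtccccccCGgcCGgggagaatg
Upstream of the inner RefSeq start of Dlx6os1, chr6:6861684-6861933, minus strand: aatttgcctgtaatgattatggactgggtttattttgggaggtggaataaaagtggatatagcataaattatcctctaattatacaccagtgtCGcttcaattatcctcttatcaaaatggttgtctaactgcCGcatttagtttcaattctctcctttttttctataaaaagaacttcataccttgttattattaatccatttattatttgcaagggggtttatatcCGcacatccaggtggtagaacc

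The first 3 are rich in CpG, with 15 in 250 bases, 18 in 248 bases and 12 in 124 bases, and the last holds 3 in 250 bases. The median over all 32851 RefSeq promoter windows of 300 bases, from 250 before a start to 50 after it, was 7. The full window of Lhx1os held 33 CpG, a number that 8.56% of windows reach, and that of Lhx1, which overlaps it, 31 (10.6%). Those of the expressed Six3os1 and Pou3f3 held 20 (26.5%) and 18 (29.7%). Lhx1os and Lhx1, at 0.1, thus held more CpG in these windows than Six3os1 and Pou3f3, whereas the windows at the starts of Dlx6os1, also at 0.1, held fewer, with 5 (62.0%) and 3 (76.7%). That of Six3 held 14 (36.3%). The window of Sox2 held 27, that of Dlx1 also 27, and that of Emx2 26. The motif CCAAT, sought on both strands, occurred 3 times upstream of Pou3f3, once each upstream of Six3os1 and between Lhx1 and Lhx1os, and not in the Dlx6os1 sequence. Of all windows 37.4% hold it and 3.37% hold it 3 times or more. The homeodomain core TAATTA, which reads the same on both strands, occurred once in the Dlx6os1 sequence and in none of the other 3. Of all windows 5.29% hold it. The motif shares are over windows of 300 bases, whereas the sequences searched have 124 to 250 bases, so the lengths are unlike. No sequence held both motifs, so no matches overlap, and a match is no evidence of binding. RefSeq windows were found for 9 of the 15 lncRNAs and coding genes.

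Pou3f3os was the highest of the 8 and the 18th highest of all lncRNAs. In GENCODE M21 it is a lincRNA under the name Pantr1, on chromosome 1, minus strand, from 42590782 to 42694842, and RefSeq lists Pou3f3os, 2610017I09Rik and linc-Brn1a as other names of it. It runs away from Pou3f3, which is on the plus strand from 42695768 to 42703176, with 926 bases between the start sites and no shared base. Its level was 0.479 times that of Pou3f3 in replicate 1 and 0.812 times in replicate 2, a difference of -0.68 ± 0.54 on the scale of log2(FPKM + 0.1) (lncRNA minus coding gene, SD, n = 2). The SD is wide because the genes differed between the libraries in opposite directions. Pou3f3 had 53.2 in replicate 1 and 39.5 in replicate 2, where Pou3f3os had 25.5 and 32.1. A ratio between the libraries as large as that of Pou3f3os was found for 2.75% of the 11185 known genes with a mean above FPKM 1, and one as large as that of Pou3f3 for 1.21%. Pou3f3os stayed below Pou3f3 in both. The other genes of the POU class III in the tables were lower than both: Pou3f4 had 11.3 ± 0.0461, Pou3f2 8.13 ± 0.264 and Pou3f1 1.39 ± 0.299.

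Six3os1 was the only one of the 7 paired lncRNAs above its coding gene. It had FPKM of 13.5 and 13.3 in replicates 1 and 2, against 7.25 and 7.20 for Six3, so its level was 1.86 and 1.84 times that of Six3, and the difference was 0.88 ± 0.0093 on the log2 scale (n = 2). The gap is far larger than the spread of either gene between the libraries, but that spread does not measure errors that both libraries share. FPKM divides by transcript length, and how far this ratio depends on the transcript models used was not tested. Six3os1 lies on chromosome 17, minus strand, from 85600651 to 85618398, and Six3 on the plus strand from 85613608 to 85629302. By GENCODE the spans overlap over 4791 bases, but their exons share only 106 bases, which is 0.892% of the exonic bases of Six3os1 and 1.95% of those of Six3. In RefSeq the start sites lie 2438 bases apart and the genes run away from each other. As strand is not marked, reads of the shared exon bases cannot be assigned to either gene. Of the paralogues of Six3, Six5 was also above FPKM 1, with 3.44 ± 0.110, Six4 had 0.403 ± 0.0306, and Six2 and Six6 were at 0.1 in both libraries. Six2 lies 65879 bases from Six3os1. Among 6 genes of the eye field, in which Six3 also works, Lhx2 had 12.7 ± 1.52 and Pax6 11.3 ± 0.447, Otx2 had 3.05 ± 0.217, and Rax and Six6 were at 0.1.

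Sox2ot was expressed at a small fraction of Sox2. The lncRNA had FPKM of 4.08 and 4.54 in replicates 1 and 2, against 148 and 139 for Sox2, which puts it at 0.0276 and 0.0327 times the level of Sox2. The difference was -5.03 ± 0.17 on the log2 scale (n = 2). Sox2ot is on the plus strand of chromosome 3 from 34104270 to 34682619, a span of 578350 bases with 11594 exonic bases, and Sox2, from 34650405 to 34652461 on the same strand, lies wholly within it without sharing an exon base. Its first GENCODE start is 546135 bases upstream of Sox2, and several of its transcripts start much nearer. FPKM divides by the length of the transcript model, so the level of a gene with such unequal transcripts depends on the models used. Of the genes within 100 kb of Sox2ot, Fxr1, of an RNA-binding protein, had 59.9 ± 3.02 and Dnajc19, of a mitochondrial protein, 31.8 ± 1.45. Mir1897, within Sox2ot, was at 0.1, and so were the lncRNAs Gm20515 and Gm3143. All 3 genes of the SOXB1 group were above FPKM 1, Sox2 followed by Sox3 with 51.1 ± 4.95 and Sox1 with 12.6 ± 1.98. In both libraries Sox2ot was below each of them.

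Emx2os was low next to an expressed gene. It had FPKM of 0.429 and 0.527 in replicates 1 and 2, against 9.66 and 8.53 for Emx2, or 0.0443 and 0.0618 times its level, a difference of -4.00 ± 0.30 on the log2 scale (n = 2). Both libraries were above 0.1, as were those of 6.54% of all lncRNAs. Emx2os is an antisense gene of chromosome 19, minus strand, from 59425104 to 59458635, and Emx2 runs from 59458372 on the plus strand to 59465357. The first exons overlap head to head over 264 bases, 5.26% of the exonic bases of Emx2os and 8.79% of those of Emx2. With libraries that do not mark strand, the share of the Emx2os value that comes from reads of Emx2 there was not tested. Emx1, the paralogue that marks dorsal progenitors of the cortex, was at 0.1 in both libraries. Pdzd8, 79324 bases away, had 6.25 ± 0.190.

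**Figure D2:**
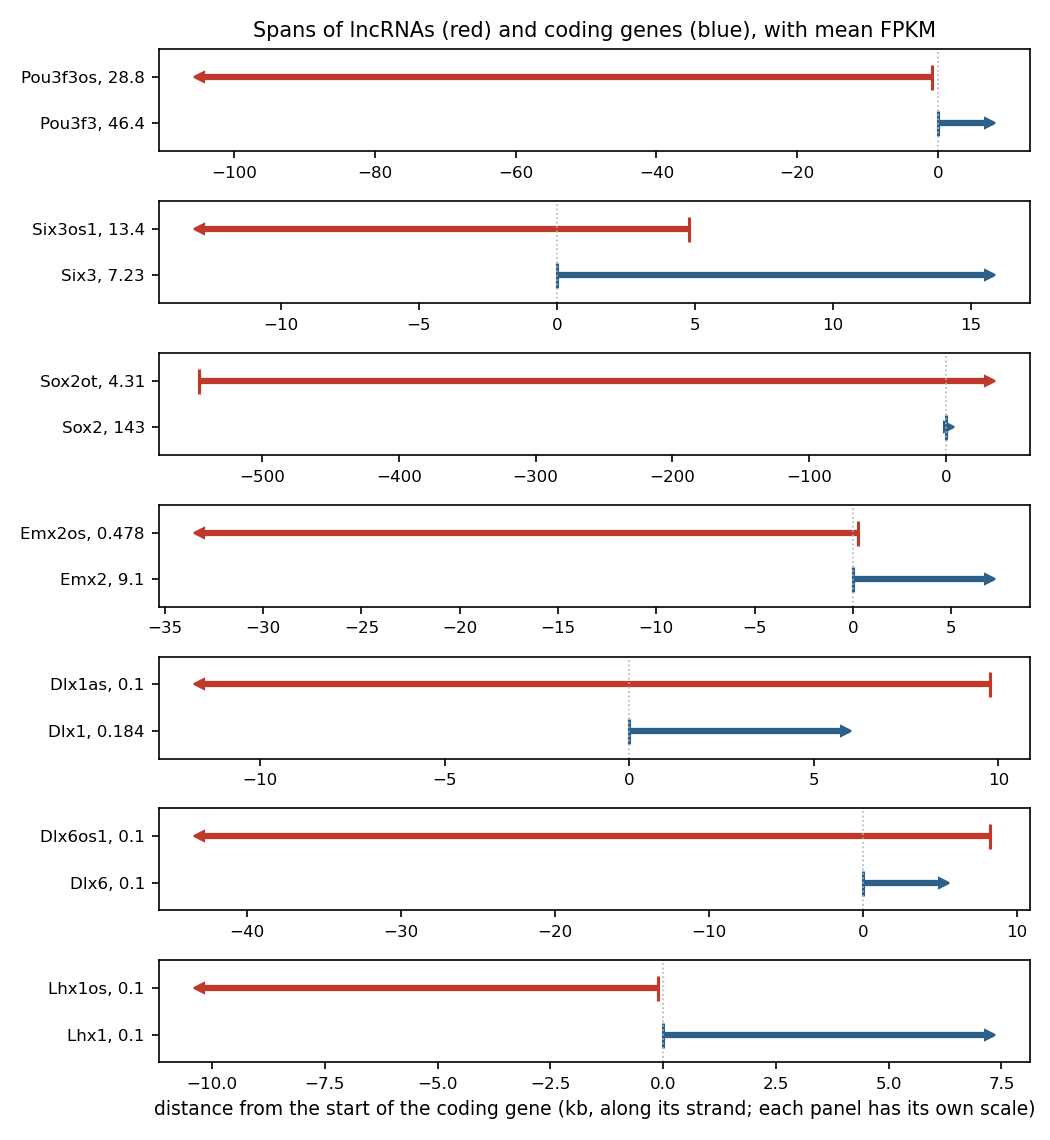
Spans of the 7 paired lncRNAs (red, above) and their coding genes (blue, below) by GENCODE M21, against the distance in kb from the start of the coding gene along its strand, with bars at the starts, arrowheads at the ends and mean FPKM beside the names. Pou3f3os and Lhx1os start just upstream of their coding gene and run away from it, Sox2ot runs across Sox2 on its strand, and the other 4 overlap the coding gene from the opposite strand.

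At the Dlx loci neither the lncRNAs nor the coding genes reached FPKM 1. Dlx1as, an antisense gene on chromosome 2 from 71516454 to 71537891, was at 0.1 in both libraries, against 0.212 and 0.155 in replicates 1 and 2 for Dlx1. The adjacent Dlx2 had 0.221 and 0.260. Dlx1as shares 335 exonic bases with Dlx1, which is 20.6% of its exonic bases. As Dlx1 was itself near 0.1, the value of Dlx1as cannot show whether reads of the shared bases count for it. Metap1d, whose span Dlx1as also overlaps, had 4.39 ± 0.804, and Hat1, of a histone acetyltransferase, 51.5 ± 2.19. Dlx6os1, an antisense gene on chromosome 6 from 6820189 to 6871592, was at 0.1 in both libraries, as were Dlx6 and Dlx5 on either side of its enhancers. Dlx3 and Dlx4 were at 0.1 too, so none of 6 Dlx genes was above FPKM 1. Smarca4, the ATPase of the BAF complex, whose protein was described to act with Dlx6os1 in mouse forebrain, had 33.3 ± 1.10.

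Of the GABAergic lineage, in which the Dlx genes act, Gad1, of the enzyme that makes GABA, had 4.14 ± 0.0905. Slc32a1, of the vesicular GABA transporter, Nkx2-1 and Isl1 were at 0.1 in both libraries, Gsx2 had 0.260 ± 0.0290 and Gad2 0.119 ± 0.0053. In these cells Gad1 was thus above FPKM 1 while all Dlx genes and both Dlx lncRNAs were below it.

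Lhx1os and Rmst were at 0.1 in both libraries as well. Lhx1os, a lincRNA on the plus strand of chromosome 11 from 84525660 to 84535831, starts 125 bases from the start of Lhx1, which was also at 0.1. Aatf, beyond Lhx1, had 12.2 and 10.7 in replicates 1 and 2, so values at this locus were not all at the lowest one. Of 8 LIM homeobox genes only Lhx2, which specifies the cortex, was above FPKM 1, and 7 were at 0.1. Of 4 genes of Cajal-Retzius cells none was above FPKM 1, with Reln, the secreted layering signal, highest at 0.532 ± 0.0314. Rmst, a lincRNA of chromosome 10, minus strand, from 92071037 to 92165170 with 7423 exonic bases, was at 0.1 beside 143 ± 6.46 for Sox2 and 504 ± 52.2 for Hnrnpa2b1, of an RNA-binding protein described as a partner of Rmst in human cells. The microRNA genes Mir135a-2 and Mir1251 inside Rmst and the lncRNAs Gm26700 and Gm20757 near it were also at 0.1. Mature microRNAs are too short for such libraries, so their values say nothing of the mature microRNAs.

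A value of 0.1 sets only an upper limit. The files hold no value below it, how many reads lie behind it is unknown, and 8090 of the 8714 lncRNAs were at 0.1 in both libraries. Each of the 8 also has a row among the known genes, 5 under their own symbol and 3 under another RefSeq name (2610017I09Rik for Pou3f3os, Dlx6as1 for Dlx6os1 and 1500016L03Rik for Lhx1os). Pou3f3os, Six3os1, Sox2ot and Emx2os had the same value in both tables, so for these the tables are not independent measurements, and the other 4 were at 0.1 in both, a value too common to tell. Of the lncRNAs with such a row 36.5% were above 0.1 in both libraries, and of those without one 2.72%. Dlx1as, Dlx6os1, Lhx1os and Rmst, all at 0.1, are of the first kind.

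Pou3f3os, Six3os1 and Sox2ot stood high also among lncRNAs named after a gene. There are 272 whose symbol consists of a known gene and the ending os, as or ot, and 16 of these (5.88%) were above FPKM 1 in both libraries, including the 3. All 16 were among the 114 that also have a row among the known genes (14.0%), and of these 114 above 0.1 were 36.8%. Of the 158 without such a row 0 (0.0%) were above 0.1. Pou3f3os was the first of the 272 by level, Six3os1 the third, Sox2ot the ninth and Emx2os the 23rd. The only one between Pou3f3os and Six3os1 was Rab26os with 18.8 ± 1.41. In 40 of the 272 pairs both genes were above 0.1 in both libraries, and in these the median difference was -3.92 on the log2 scale, compared with -2.34 over the 4 pairs of Pou3f3os, Six3os1, Sox2ot and Emx2os. The lncRNA was below its coding gene in both libraries in 70.6% of the 272 pairs and in 92.5% of the 40, as were Pou3f3os, Sox2ot and Emx2os. Sox2ot (-5.03) and Emx2os (-4.00) were at or below this median, and Pou3f3os (-0.68) and Six3os1 (0.88) were above it. The lncRNA was above its coding gene in both libraries in 1.47% of the 272 (4 pairs) and in 2 of the 40 (5.0%). The 2 were Six3os1 and Chd3os, which had 2.44 ± 0.388 against 0.829 ± 0.112 for Chd3. The others were outside the 40 because the coding gene was at 0.1 in at least 1 library. They were Rab26os, with 18.8 ± 1.41 against 0.111 ± 0.0152 for Rab26, and Kcnq1ot1, with 0.139 ± 0.0025 against 0.1 for Kcnq1.

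**Figure D3:**
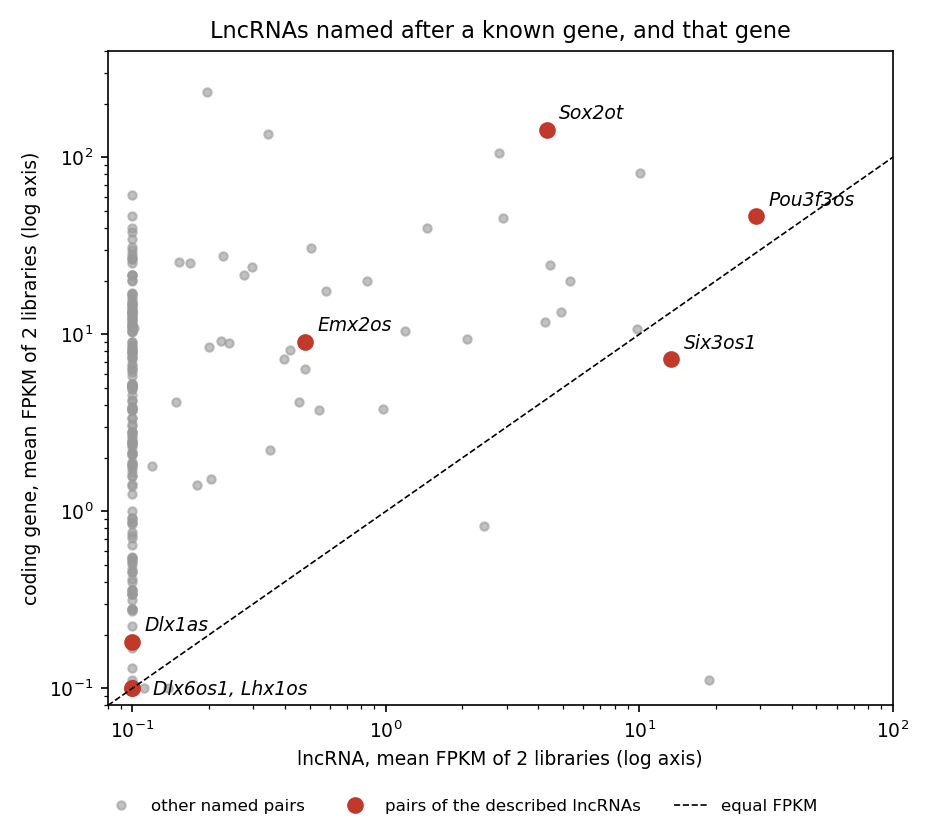
Mean FPKM of 2 libraries (log axes) of 272 lncRNAs named after a known gene (x) and of that gene (y), with the 7 pairs described in red and the dashed line at equal levels. Six3os1 lies below the line, Pou3f3os just above it, Sox2ot and Emx2os far above it, and the column at 0.1 holds the lncRNAs at the lowest value.

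Over all 272 pairs, a lncRNA above FPKM 1 was more often seen beside an expressed gene. The coding gene was above FPKM 1 in both libraries in 58.5% of pairs. Of these the lncRNA was above FPKM 1 in 8.81% (14 of 159) and above 0.1 in 24.5%, and of the other pairs in 1.77% (2 of 113) and 2.65%. Of the 4 pairs described here with an expressed coding gene the lncRNA was above FPKM 1 in 3, the exception being Emx2os. These 4 lncRNAs also have a row among the known genes. The 8.81% includes named lncRNAs without one, of which 0 of 158 were above 0.1, so it is a low background for them. Of the 114 with such a row 14.0% were above FPKM 1, whatever the level of the coding gene. The share of those beside an expressed gene was not counted. Among all lncRNAs Pou3f3os lay at percentile 99.8, Six3os1 at 99.4, Sox2ot at 98.4 and Emx2os at 95.5. Among known genes the same levels lie at percentiles 90.1, 79.6, 62.9 and 48.1.

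**Figure D4:**
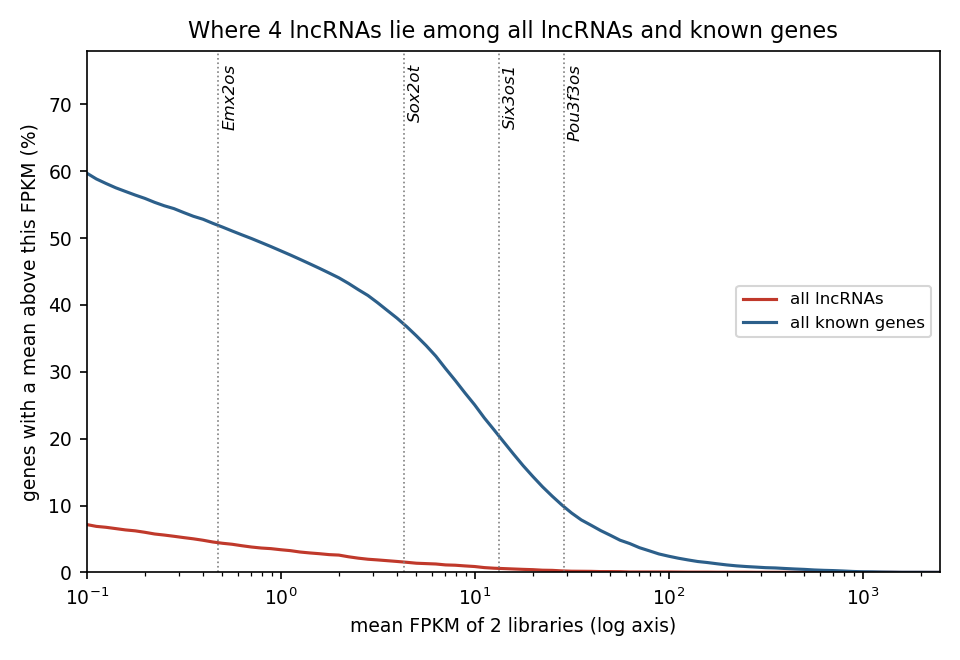
Percent of all lncRNAs (red) and all known genes (blue) with a mean FPKM above the value on the x axis (log axis), with dotted lines at the means of Pou3f3os (28.8), Six3os1 (13.4), Sox2ot (4.31) and Emx2os (0.478). The 3 highest lie where few lncRNAs but many known genes are found.

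The label of the cells was checked against marker lists. Each of 9 marker genes of NSCs and radial glia exceeded FPKM 1 (median 57.9, sum of means 3997). The 6 neuron genes had a median of 0.842 and a sum of 18.9, and Stmn2 was at 0.1. Above FPKM 1 were 3 of the 6, set against 47.7% of all known genes. They were Snap25 with 10.5 ± 0.631, Tubb3 with 6.37 ± 0.339 and Rbfox3 with 1.10 ± 0.0027. All 4 microglia genes and all 3 endothelial genes were at 0.1 in both libraries, as were Pou5f1 and Zfp42 of 3 pluripotency genes. In bulk RNA, a few cells with much RNA of a gene and many cells with little of it cannot be told apart, and this holds for the low values of Emx2os and Dlx1. Summed over known genes, FPKM came to 352990 (replicate 1) and 367131 (replicate 2).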

How the data were processed

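Poly(A)+ RNA of 2 NSC libraries was made into libraries with a TruSeq kit that does not mark strand and read as pairs. By the study's methods and the submitters' processing notes, reads were aligned to mm10 with TopHat2 2.0.11 and Bowtie2 2.2.2, and the authors computed FPKM with Cufflinks 1.3.0 (bias and multi-read correction) for lncRNAs together with UCSC known genes. In the deposited FPKM nothing lies below 0.1, a limit the methods give for fold changes. Depth and counting error are unknown, since no counts were used.

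Here each library's FPKM were used as deposited. Means, SDs, differences of log2(FPKM + 0.1), percentiles with ties split evenly and counts above FPKM 1 were computed with Python 3.11.15, NumPy 2.4.6 and pandas 2.3.3, drawn with matplotlib 3.10.9 and tested on simulated data. With 1 group no conditions could be compared, and no test was run on differences between genes over 2 libraries. Gene positions are those of GENCODE M21 on GRCm38; other names and promoter sequences are those of RefSeq. A counterpart row was found by symbol or RefSeq name alone. Positions by these models may differ from those the authors counted on. Genes named are the 8 lncRNAs, the coding genes in their names and genes within 100 kb that have a row. Also named are the highest and lowest genes of fixed lists. Rab26os, Chd3os, Kcnq1ot1 and further list members were named after their values were seen. The 8 lncRNAs and the lists were chosen with earlier results of these data known. The FPKM threshold, the pseudocount, filters, 1 row per symbol and each library alone were tried in place of these choices. Some genes of the lists are not reported here. Libraries of other cell types were not analysed here.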

Additional observations from a re-analysis of the deposited data

How the results depend on the processing

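No paired analysis was possible because there is 1 group. The counts of lncRNAs (3 of 8) and of coding genes (4 of 7) above FPKM 1 were unchanged with either library left out and on the mean of the libraries. At FPKM 0.1 they were 4 and 5, at 0.5 they were 3 and 4, and at 5 they were 2 and 4. A pseudocount of 1 gave a difference of 0.80 for Six3os1, -4.77 for Sox2ot and -2.77 for Emx2os, which follows from adding more to a low value. With either library left out the difference was -1.06 to -0.30 for Pou3f3os, 0.87 to 0.88 for Six3os1, -5.15 to -4.90 for Sox2ot and -4.21 to -3.78 for Emx2os, so the size of the Pou3f3os difference rests on which library is used. No difference changed sign in any alternative run. Among only lncRNAs with a mean above 0.1 the percentiles were 97.2 for Pou3f3os, 91.7 for Six3os1, 78.3 for Sox2ot and 37.7 for Emx2os. With either library left out that of Pou3f3os was 99.7 to 99.8. Of all 272 pairs the lncRNA was below the coding gene in 72.1% on the mean of the libraries, in 71.0% to 71.7% with either left out, and in 95.0% of the pairs with both genes above 0.1. In 38 alternatives the value stayed within the spread between libraries or within 1.5 times the count, and 9 moved. For the differences, leaving out 1 of 2 libraries always shifts the mean by less than their SD. Those runs are among the 38 but could not have moved by this rule, so they show no stability. Depth limits what a value of 0.1 shows.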

Other observations

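Further lncRNAs named after transcription factors were at 0.1 about as often as lncRNAs in general. Taken by a set of symbol prefixes (Dlx, Fox, Hox, Pax, Sox, Sp, Tbx, Zeb and others) after the data were seen, 28 pairs were found, a choice that leaves out factors such as Prox1 and Hopx, whose lncRNAs Prox1os and Hopxos were also at 0.1. Of the 28 pairs 2 lncRNAs (5.88% of the 272 named pairs were above FPKM 1) and the coding genes of 14 pairs were above FPKM 1 in both libraries, with Sox5 counted in 5 pairs. The 2 were Sp3os with 4.44 ± 0.883 (SD, n = 2) beside 24.6 ± 0.586 for Sp3, and Zeb2os with 2.10 ± 0.280 beside 9.36 ± 0.0072 for Zeb2, a zinc finger factor of neural differentiation. Nkx2-2os was at 0.149 ± 0.0132 beside 4.17 ± 0.740 for Nkx2-2. The other 25 were at 0.1 in each library, as were 92.8% of all lncRNAs, and 11 of them lay beside a coding gene above FPKM 1. Of the 11, 8 have no row among the known genes, a kind of named lncRNA of which 0 of 158 were above 0.1. Those with such a row were Pax6os1, beside 11.3 ± 0.447 for Pax6, Otx2os1, beside 3.05 ± 0.217 for Otx2, and Sox5os3, beside 5.10 ± 0.036 for Sox5. The lncRNAs at Hoxa11, Hoxb3, Hoxb5 and Hoxd3 were at 0.1 together with their genes.

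Pou3f3os2, the second lncRNA named after Pou3f3 and known in RefSeq as Pantr2, was at 0.1 in both libraries, beside 28.8 ± 4.70 for Pou3f3os. Pou3f3os2 has no row among the known genes by name. Of the 114 named lncRNAs that have one, 42 were above 0.1 in both libraries. By the study's methods coding and non-coding transcripts were quantified in the same run, and the reason for this gap was not tested.

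In 3 of the 4 pairs above 0.1 the lncRNA was higher in replicate 2 and the coding gene in replicate 1. On the log2 scale of replicate 1 over replicate 2, Pou3f3os was at -0.33 and Pou3f3 at 0.43, Emx2os at -0.30 and Emx2 at 0.18, and Sox2ot at -0.16 and Sox2 at 0.09. Six3os1 and Six3 differed little, with 0.02 and 0.01. Of all lncRNAs with a mean above FPKM 1, 60.8% were higher in replicate 2, compared with 56.2% of such known genes, and the medians were -0.05 and -0.02. These are shares of single genes, and how often the genes of a named pair differed in opposite directions was not counted. The pattern is not particular to these 3 pairs. Chd3os was also higher in replicate 2 and Chd3 in replicate 1, whereas Sp3os and Sp3 were both higher in replicate 2. No test of this was run.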
